A study of Mus musculus with 4 samples.

Results

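The transcripts of 8 genes that carry glucose and fructose into hepatocytes and through glycolysis were followed in the livers of wild-type (WT) and *Usp21* knockout (KO) mice. The genes were taken by name, as *Slc2a2*, *Gckr*, *Khk*, *Pfkl*, *Pfkfb1*, *Pfkfb3*, *Gapdh* and *Pklr*, from 35739 genes with a deposited abundance in TPM (transcript abundance corrected for transcript length and scaled to a common total). The KO mice lacked exons 3 and 4 of *Usp21*, a deubiquitinase gene, in every tissue, after Cre recombinase removed the segment between loxP sites that had been placed in 129/Sv embryonic stem cells. The WT mice were littermates without the deletion, bred on C57BL/6 with a 129/Sv contribution, and both genotypes ate a normal diet and were used at 10 to 11 weeks of age. WT replicates 2 and 3 and KO replicates 1 and 3 gave 1 liver library each, so every comparison set 2 libraries against 2, and values are given in that order of replicates. The sex of the mice, their feeding state and the hour of collection are not given in the sources used here.

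The liver takes up glucose through GLUT2, the protein of *Slc2a2*, a transporter that lets glucose pass in both directions. The protein of *Gckr* restrains the phosphorylation of glucose in hepatocytes during fasting and releases it when glucose or fructose 1-phosphate rises. Fructose is phosphorylated by ketohexokinase (*Khk*) and enters the same route below phosphofructokinase, as trioses. Phosphofructokinase (*Pfkl* in liver) is switched on by fructose 2,6-bisphosphate, which the bifunctional enzymes of *Pfkfb1* and *Pfkfb3* make and remove, and pyruvate kinase (*Pklr*) closes the pathway under control of glucose through the transcription factor ChREBP.

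None of the 8 genes passed the test between genotypes after adjustment, although all 8 had a lower mean TPM in the KO livers. *Slc2a2* had the lowest ratio, with a KO mean at 0.480 of the WT mean, and *Pklr* came next at 0.594. In *Slc2a2*, *Pfkl*, *Gapdh* and *Pklr* both KO libraries lay below both WT libraries. *Gckr*, *Khk*, *Pfkfb1* and *Pfkfb3* overlapped between the genotypes.

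These counts were read against all 9581 genes whose mean reached 1 TPM, a filter that all 8 genes passed. A lower KO mean was found for 3187 of them (33.3%). This share depends on the scaling. With TMM factors, a rescaling of the libraries, the median difference in log2(TPM + 1) over all tested genes was 0.01, against 0.15 without them. Groups that did not overlap were found for 45.3% of the tested genes, with KO above WT for 34.4% and KO below WT for 1046 genes (10.9%), compared with 0 and 4 of the 8 genes. By limma on log2(TPM + 1), 1005 genes (10.5%) had an unadjusted p under 0.05, and 195 (2.04%) did so with a lower KO value, as *Slc2a2* and *Pklr* did. When KO replicate 1 was left out, both genes were above 0.05, with an unadjusted p of 0.107 and of 0.212 by limma. *Slc2a2* was above it also without WT replicate 2 (0.117), and *Pklr* without WT replicate 3 (0.226). After Benjamini-Hochberg adjustment, 8 genes (0.0835%) remained under 0.05 and none was a gene of this set. The difference in log2(TPM + 1), KO minus WT, had a median of -0.27 over the 8 genes and of 0.15 over all tested genes, and only *Slc2a2* reached a 2-fold lower value, as 105 genes (1.1%) did out of 353 (3.68%) that changed 2-fold either way.

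The tissue label was checked on marker genes. All 7 hepatocyte markers were above 0 TPM, while 2 of 3 adipocyte and 3 of 4 skeletal muscle markers were listed at 0 in all 4 libraries. The hepatocyte markers summed to 71154 and 55804 TPM in WT, against 58410 and 47823 TPM in KO, which overlapped. Of them 3 had a higher and 4 a lower KO mean. All 7 sinusoidal endothelial markers had a higher KO mean, with overlapping sums of 60.5 and 45.1 TPM in WT, against 50.7 and 69.4 TPM in KO. Markers of stellate cells summed to 57.3 and 44.0 TPM in WT, against 91.1 and 68.6 TPM in KO, and those of cholangiocytes to 14.6 and 15.9 TPM in WT, against 37.9 and 24.5 TPM in KO. The part of these cell types in the values of the 8 genes was not tested. In bulk tissue, fewer cells of a type and less RNA per cell cannot be told apart. *Usp21* itself had 4.07 and 6.29 TPM in WT, against 1.64 and 2.93 TPM in KO, with groups that did not overlap, and its difference of -0.92 ± 0.33 (SE) had an adjusted p of 0.464 by limma. TPM keeps no read depth. A second deposited table, of TMM-normalized CPM (read counts scaled to library size), could be turned back into 148164 and 110427 reads in WT, and 145306 and 102898 in KO. It listed at 0 a total of 428 of the 682 genes that reached 100 TPM in all 4 libraries, and among the 8 genes it held 1 read of *Khk* in WT replicate 3, 1 read of *Pfkfb1* in WT replicate 2 and 0 reads of the other 6 genes, which is too few for a comparison.

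The start regions of *Slc2a2* and *Pklr* are shown because these genes had the lowest unadjusted p of the set and because an element named for carbohydrate control lies in one of them. RefSeq start regions, from 250 bases before the start of transcription to 50 bases from it on, matched all 8 genes, with 13 starts in all. In the sequences below, from build GRCm38.p6 and written 5′ to 3′ on the forward strand, which is the strand of both genes, capitals mark the motif matches.
Slc2a2, chr3:28697653-28697952: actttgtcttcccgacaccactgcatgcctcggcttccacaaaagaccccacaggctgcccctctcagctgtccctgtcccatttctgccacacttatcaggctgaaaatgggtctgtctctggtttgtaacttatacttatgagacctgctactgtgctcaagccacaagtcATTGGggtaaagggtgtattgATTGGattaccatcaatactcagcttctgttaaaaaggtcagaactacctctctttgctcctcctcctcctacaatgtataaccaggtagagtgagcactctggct
Pklr, downstream start, chr3:89136373-89136672: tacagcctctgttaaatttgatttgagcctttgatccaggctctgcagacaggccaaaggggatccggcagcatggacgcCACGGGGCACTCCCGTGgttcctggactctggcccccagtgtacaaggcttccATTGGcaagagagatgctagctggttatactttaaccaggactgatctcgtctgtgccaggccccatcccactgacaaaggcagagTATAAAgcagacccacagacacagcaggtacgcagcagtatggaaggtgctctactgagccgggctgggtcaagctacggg
In the *Pklr* region the first run of capitals, CACGGGGCACTCCCGTG, begins 170 bases before the start and matches the consensus of the carbohydrate response element, the site that ChREBP binds together with its partner MLX. Such a match was present in 39 of 32851 RefSeq start regions of this length (0.119%). The element was searched for only after the sequences had been read, so this rate is a description. The next run is a CAAT box on the opposite strand (CCAAT, printed as ATTGG) 117 bases before the start, and the last is a TATA box (TATAAA) 31 bases before it. The upstream start of *Pklr*, from which erythroid cells transcribe the gene, held none of the motifs searched. The *Slc2a2* region held a pair of CAAT boxes on the opposite strand, 77 and 56 bases before the start, and no carbohydrate response element or TATA box. CAAT boxes were in 37.4% and TATA boxes in 13.6% of all start regions.

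*Khk* was the other gene of the set, besides *Pfkfb3*, with an E-box (CACGTG), a core motif of many sites for basic helix-loop-helix factors, CLOCK and BMAL1 among them.
Khk, chr5:30921309-30921608, forward strand: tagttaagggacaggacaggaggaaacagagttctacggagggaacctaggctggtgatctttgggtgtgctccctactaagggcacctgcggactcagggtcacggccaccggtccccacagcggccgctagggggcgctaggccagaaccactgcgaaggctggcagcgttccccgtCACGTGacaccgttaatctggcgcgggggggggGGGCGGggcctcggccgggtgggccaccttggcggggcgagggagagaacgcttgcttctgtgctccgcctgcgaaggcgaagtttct
The E-box began 71 bases before the *Khk* start and was followed, 38 bases before the start, by a GC box (GGGCGG). At the more downstream of the starts of *Pfkfb3* the E-box began 53 bases before the start. E-boxes were found in 7.15% and GC boxes in 35.7% of all start regions, on either strand. Exact pairs of E-boxes 5 bases apart were found in 0 of 32851 regions. The regions of *Gckr*, *Pfkl*, *Pfkfb1* and *Gapdh* had no E-box and no carbohydrate response element, and *Pfkl* had 3 GC boxes, of which 2 overlapped in part. The carbohydrate response element and the GC box were added to the search after the sequences had been read.

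Levels in TPM, which can be compared between genes because they are per length, spanned from *Gapdh*, with a mean of 1029 TPM over the 4 libraries, to *Pfkfb3*, with 3.21 TPM. *Khk* followed *Gapdh* at 260 TPM, and 96.0% of the tested genes lay below it. *Slc2a2* (64.6 TPM), *Pklr* (32.7 TPM) and *Gckr* (27.9 TPM) formed the middle of the order, and *Pfkfb1* (9.90 TPM) and *Pfkl* (7.65 TPM) stood just above *Pfkfb3*. The ranges of neighbours over the 4 libraries did not overlap between *Gapdh* and *Khk*, *Khk* and *Slc2a2*, *Gckr* and *Pfkfb1*, or *Pfkl* and *Pfkfb3*. They overlapped for the other neighbours, of which *Slc2a2* was above *Pklr* within 4 of 4 libraries, whereas *Pklr* was above *Gckr*, and *Pfkfb1* above *Pfkl*, in 3 of 4.

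**Figure D1:**
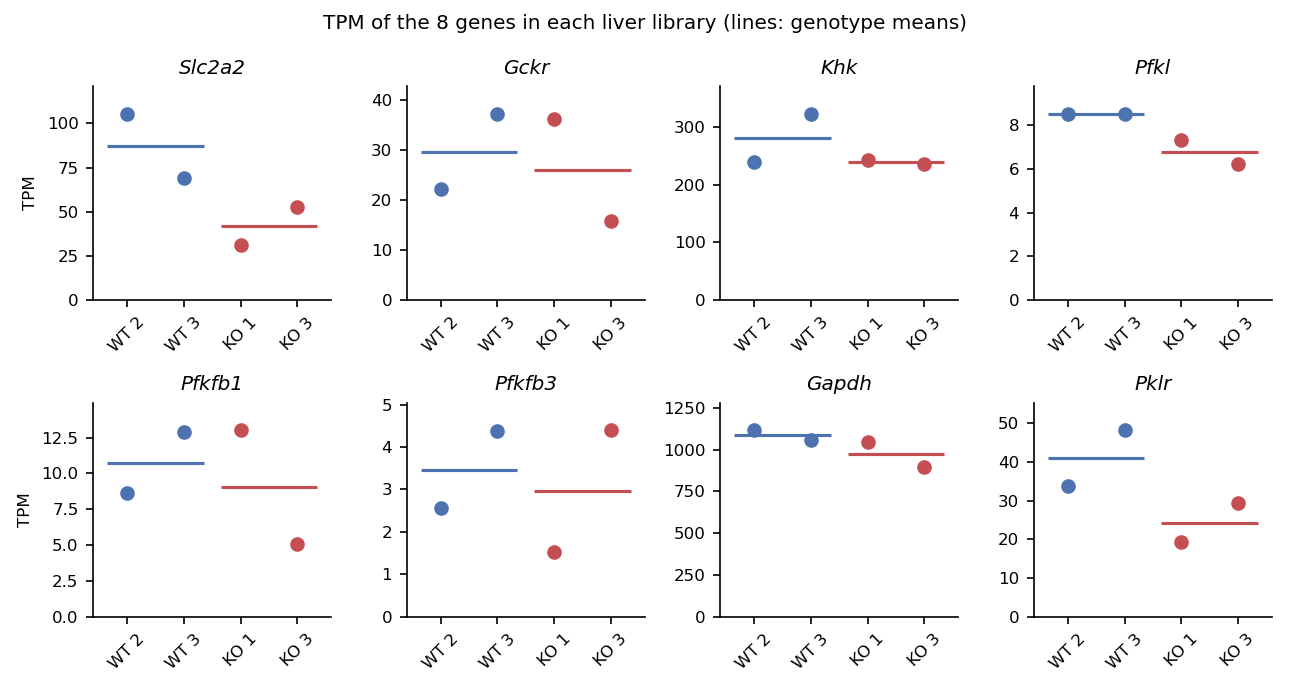
TPM of each of the 8 genes (vertical axes, each from 0) in WT replicates 2 and 3 (blue) and KO replicates 1 and 3 (red), 1 point per library, with a line at the mean of each genotype. The red points lie below the blue ones for *Slc2a2*, *Pfkl*, *Gapdh* and *Pklr*, and the genotypes overlap for the other 4 genes.

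Glucose entry was read from *Slc2a2* (ENSMUSG00000027690, chromosome 3, 28697903 to 28731359, forward strand, build GRCm38 as for the genes that follow). Its TPM was 105 and 69.3 in WT, against 30.99 and 52.8 in KO. All 4 libraries were spread apart, with the highest WT library at 1.52 times the other WT library and the highest KO library at 1.70 times the other KO library. The means were 87.3 ± 25.5 TPM in WT, against 41.9 ± 15.4 TPM in KO (SD, n = 2). The difference in log2(TPM + 1) was -1.06 ± 0.33 (SE), with a 95% interval from -1.87 to -0.25, an unadjusted p of 0.0194 and an adjusted p of 0.464 by limma. Only 0.950% of the tested genes had a lower value. Without KO replicate 3 the difference was -1.43, and without KO replicate 1 it was -0.68.

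Within the family of glucose transporters 1 to 5, *Slc2a2* held 92.8% and 92.9% of the TPM in the WT libraries and 84.8% and 91.2% in the KO libraries. Its share was therefore lower in both KO libraries, and an exact permutation test (two-sided) gave p = 0.333, the smallest that 2 libraries against 2 allow. *Slc2a1*, the transporter GLUT1 of most other tissues, held 3.37% and 4.10% in WT and 12.8% and 3.79% in KO, which overlapped. Its own level was 3.83 and 3.06 TPM in WT, against 4.67 and 2.19 TPM in KO, so its share in KO replicate 1 was high while *Slc2a2* was at its lowest there. *Slc2a5*, the fructose transporter GLUT5, held between 1.75% and 4.66% in every library, and *Slc2a3* and *Slc2a4*, the transporters of neurons and of muscle and fat, stayed at or under 0.811%.

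Among genes whose mean reached 10 TPM, those whose centred log2(TPM + 1) lay nearest to that of *Slc2a2* over the 4 libraries were *Sult5a1*, *Asic5* and *Obp2a*, out of 4024 compared. Their root mean square distances were 0.173, 0.188 and 0.217 on the log2 scale. *Sult5a1* had 15.9 and 13.5 TPM in WT, against 5.78 and 10.3 TPM in KO, which is the same order of the libraries as in *Slc2a2*. *Obp2a* had this order too, but *Asic5* overlapped between genotypes, with 18.9 and 8.97 TPM in WT, against 5.01 and 9.66 TPM in KO. The genes were picked for their closeness to *Slc2a2*, so a shared order is only a description over 4 libraries.

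Glucose phosphorylation was read from *Gckr* (ENSMUSG00000059434, chromosome 5, 31297443 to 31327314, forward strand), which restrains this step. *Gckr* had 22.2 and 37.3 TPM in WT, against 36.3 and 15.8 TPM in KO. Each genotype thus held 1 high and 1 low library, and the genotypes overlapped. The difference was -0.25 ± 0.44 (SE), with a 95% interval from -1.35 to 0.84 and an adjusted p of 0.842 by limma. The interval thus held a 2-fold lower value as well as no difference. Its sign rested on single libraries, because it was 0.32 without KO replicate 3 and 0.11 without WT replicate 3.

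High-affinity hexokinases of other tissues were low, with means over the 4 libraries of 0.434 TPM for *Hk1*, 0.355 TPM for *Hk2* and 0.492 TPM for *Hk3*. *Mlxipl*, which encodes ChREBP and was named after its values were seen, had 13.4 and 14.9 TPM in WT, against 37.1 and 12.0 TPM in KO. It was highest in KO replicate 1, the library in which *Pklr* was lowest (19.2 TPM). It was lowest in KO replicate 3, which was also the lowest library for *Gckr*, *Khk*, *Pfkl*, *Pfkfb1* and *Gapdh*.

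Fructose phosphorylation was read from *Khk* (ENSMUSG00000029162, chromosome 5, 30921431 to 30931248, forward strand), the first enzyme of fructose breakdown. It had 240 and 322 TPM in WT, against 242 and 235 TPM in KO. WT replicate 3 stood above the other 3 libraries, which lay within 235 to 242 TPM. The same library had 11.6% of its TPM in mitochondrially encoded genes, against 15.5% to 16.5% in the others, and its 3 neutrophil markers summed to 41.8 TPM, against 1.85 to 4.16 TPM. Their part in the *Khk* values was not tested. The difference was -0.22 ± 0.20 (SE), with a 95% interval from -0.72 to 0.28 and an adjusted p of 0.692 by limma, and without WT replicate 3 it was -0.01. *Tkfc*, the triokinase that takes up the glyceraldehyde made from fructose, had 88.6 and 137 TPM in WT, against 69.2 and 73.8 TPM in KO, with an unadjusted p of 0.0467 and an adjusted p of 0.472 by limma. The ratio of *Khk* to *Tkfc* was 2.71 and 2.36 in WT and 3.50 and 3.19 in KO, higher in both KO libraries (exact permutation p = 0.333, the smallest possible).

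Phosphofructokinase was read from *Pfkl* (ENSMUSG00000020277, chromosome 10, 77986947 to 78010083, reverse strand), the liver-type subunit. *Pfkl* had 8.52 TPM in both WT livers, against 7.34 and 6.23 TPM in KO. Both KO libraries lay below WT, by a difference of -0.29 ± 0.21 (SE), with a 95% interval from -0.82 to 0.24 and an adjusted p of 0.617 by limma. It kept its sign whichever library was left out, from -0.40 to -0.19. *Pfkl* held 65.9% and 69.8% of the TPM of the 3 phosphofructokinase genes in WT and 63.4% and 55.3% in KO. *Pfkm*, the muscle-type subunit, held 30.3% and 30.2% in WT and 32.7% and 41.2% in KO, and *Pfkp*, the platelet type, up to 3.92%. The shares of *Pfkl* and *Pfkm* did not overlap between genotypes (exact permutation p = 0.333 for each, the smallest possible). As *Pfkp* held so little, they are nearly the same comparison. The level of *Pfkm* itself overlapped, with 3.92 and 3.69 TPM in WT, against 3.79 and 4.64 TPM in KO. In the CPM table the order of these genes was different, with 0 reads of *Pfkl* in every library, 1 read of *Pfkm* in KO replicate 1, and 17, 17, 36 and 10 reads of *Pfkp* in WT replicates 2 and 3 and KO replicates 1 and 3.

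*Pfkfb1* (ENSMUSG00000025271, chromosome X, 150588229 to 150643878, forward strand) encodes the bifunctional enzyme of liver and muscle that sets fructose 2,6-bisphosphate in response to glucagon and insulin. It had 8.63 and 12.9 TPM in WT, against 13.0 and 5.09 TPM in KO. The KO libraries were the highest and the lowest of the 4, and their difference of -0.32 ± 0.44 (SE) from WT, with a 95% interval from -1.41 to 0.77 (adjusted p = 0.791, limma), was 0.28 without KO replicate 3. Within each genotype the order was as in *Gckr*, with WT replicate 2 below WT replicate 3 and KO replicate 3 far below KO replicate 1. The highest library differed, being KO replicate 1 here and WT replicate 3 in *Gckr*.

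*Pfkfb3* (ENSMUSG00000026773, chromosome 2, 11471433 to 11554077, reverse strand) encodes the inducible isozyme, whose kinase activity far exceeds its phosphatase activity. It had 2.55 and 4.37 TPM in WT, against 1.53 and 4.39 TPM in KO, so KO replicate 1 was the lowest library and the other KO library was level with the highest WT library. The difference was -0.24 ± 0.44 (SE), with a 95% interval from -1.33 to 0.85 and an adjusted p of 0.848 by limma, and it was 0.30 without KO replicate 1 and 0.05 without WT replicate 3. Markers of Kupffer cells, the resident macrophages of the liver, summed to 97.3 and 110 TPM in WT, against 54.9 and 143 TPM in KO, and 6 of 7 of them were lowest in KO replicate 1. The part of these cells in the *Pfkfb3* values was not tested.

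The shares of *Pfkfb1* and *Pfkfb3* differed more between the 2 KO libraries than between the 2 WT libraries. *Pfkfb1* held 72.7% and 70.9% of the TPM of the 4 bifunctional enzyme genes in WT and 83.8% and 47.9% in KO, while *Pfkfb3* held 21.5% and 24.1% in WT and 9.86% and 41.3% in KO. The ratio of *Pfkfb1* to *Pfkfb3* was 3.38 and 2.95 in WT and 8.50 and 1.16 in KO, so the WT libraries again lay between the KO libraries. *Pfkfb2*, the heart isozyme, held between 4.41% and 7.27% (0.524 to 0.827 TPM). *Pfkfb4*, first known from testis, held between 0.518% and 3.56% (0.0941 to 0.378 TPM). With *Pfkfb3* at 1.53 to 4.39 TPM, these shares and the ratio rest on low levels.

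*Gapdh* (ENSMUSG00000057666, chromosome 6, 125161715 to 125166467, reverse strand) encodes glyceraldehyde 3-phosphate dehydrogenase, the point at which the glucose and fructose routes have merged, and was the reference transcript of the RT-qPCR of the study. It had 1115 and 1059 TPM in WT, against 1044 and 899 TPM in KO. Both KO libraries lay below both WT libraries, by a difference of -0.17 ± 0.18 (SE), with a 95% interval from -0.63 to 0.29 and an adjusted p of 0.745 by limma. It ranged from -0.27 to -0.06 when 1 library was left out. When every library was divided by its *Gapdh* level, the difference of *Slc2a2* went from -1.06 to -0.90 and that of *Pklr* from -0.74 to -0.58, and the median of all genes went from 0.15 to 0.29. *Gapdhs*, the sperm isozyme, was above 0 only in WT replicate 2, where it held 0.0264% of the TPM of both genes.

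*Gapdh* was also the gene of the set with the least certain read assignment. Of the 31-base stretches of its transcripts, 28.1% occurred in other genes, compared with 0% for *Gckr* and *Khk* and between 0.463% and 1.66% for *Slc2a2*, *Pfkl*, *Pfkfb1* and *Pfkfb3*. The TPM table held 41 near-identical copies, defined as genes with at least 50% of their stretches in common with *Gapdh*, and 36 of them were above 0 TPM in some library. They received 381 and 336 TPM in WT, against 288 and 266 TPM in KO, or between 21.7% and 25.5% of the sum with *Gapdh*. That sum was 1496 and 1395 TPM in WT, against 1332 and 1164 TPM in KO, which kept both KO libraries below WT, and its difference was -0.21 on the log2 scale. *Pklr* shared 21.1% of its stretches, almost all with its neighbour *Hcn3*, which was listed at 0 in all 4 libraries.

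**Figure D2:**
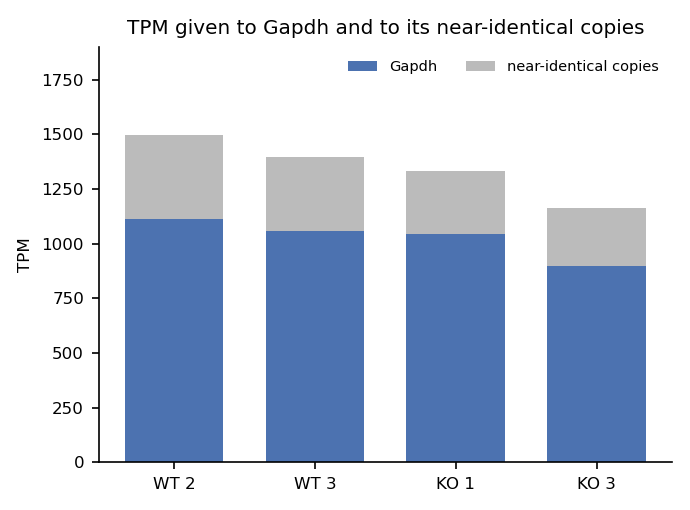
TPM (vertical axis, from 0) given to *Gapdh* (blue) and to 41 near-identical copies (grey, stacked) in each of the 4 libraries. The stacked sums run from 1496 TPM in WT replicate 2 to 1164 TPM in KO replicate 3, and both KO sums are below both WT sums.

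*Pklr* (ENSMUSG00000041237, chromosome 3, 89136142 to 89146784, forward strand) encodes the pyruvate kinase of liver and red cells, the last step of glycolysis. It had 33.8 and 48.2 TPM in WT, against 19.2 and 29.5 TPM in KO. Both KO libraries lay below WT, although KO replicate 3 was near WT replicate 2. The means were 41.0 ± 10.2 TPM in WT, against 24.3 ± 7.25 TPM in KO (SD, n = 2). The difference was -0.74 ± 0.28 (SE), with a 95% interval from -1.45 to -0.03, an unadjusted p of 0.0438 and an adjusted p of 0.472 by limma. Without KO replicate 3 it was -1.03, and without KO replicate 1 it was -0.44.

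Gene totals cannot tell the liver start of *Pklr*, whose sequence is printed above, from the erythroid start. The 3 erythroid markers summed to 598 and 564 TPM in WT, against 577 and 437 TPM in KO, and their part in the *Pklr* values was not tested. *Pkm*, the pyruvate kinase of most other tissues, had 5.21 and 4.99 TPM in WT, against 3.65 and 5.29 TPM in KO. *Pklr* therefore held 86.6% and 90.6% of the pyruvate kinase TPM in WT, against 84.0% and 84.8% in KO, and the ratio of *Pklr* to *Pkm* was 6.48 and 9.66 in WT and 5.26 and 5.57 in KO. Both were lower in both KO libraries (exact permutation p = 0.333, the smallest possible). As *Pklr* and *Pkm* make up the whole family, the share and the ratio are the same comparison.

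**Figure D3:**
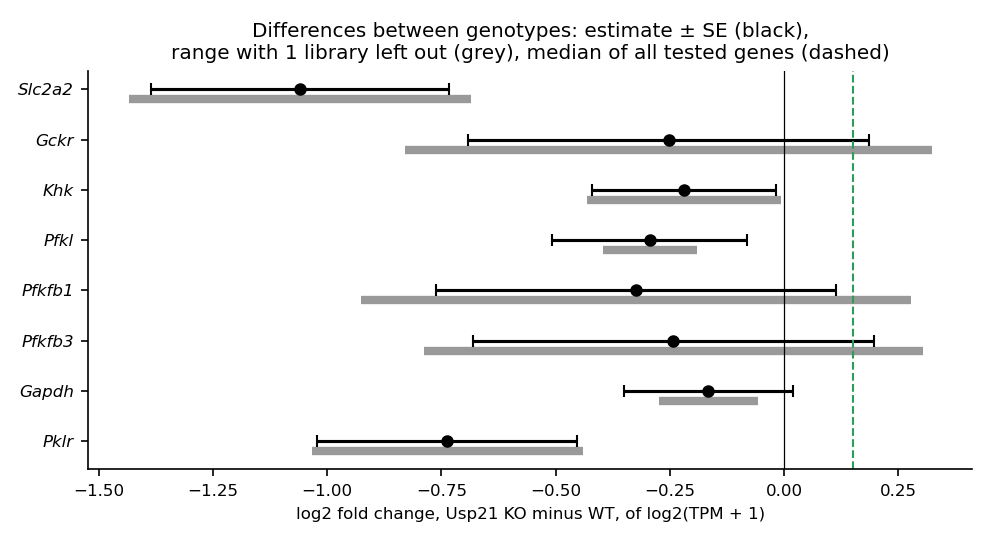
Difference in log2(TPM + 1), KO minus WT (horizontal axis), of the 8 genes, as the limma estimate ± SE (black) with the range over fits that leave out 1 library (grey), and the median of all tested genes at 0.15 (dashed green). All 8 estimates are below 0, and the grey ranges of *Gckr*, *Pfkfb1* and *Pfkfb3* cross 0.

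**Figure D4:**
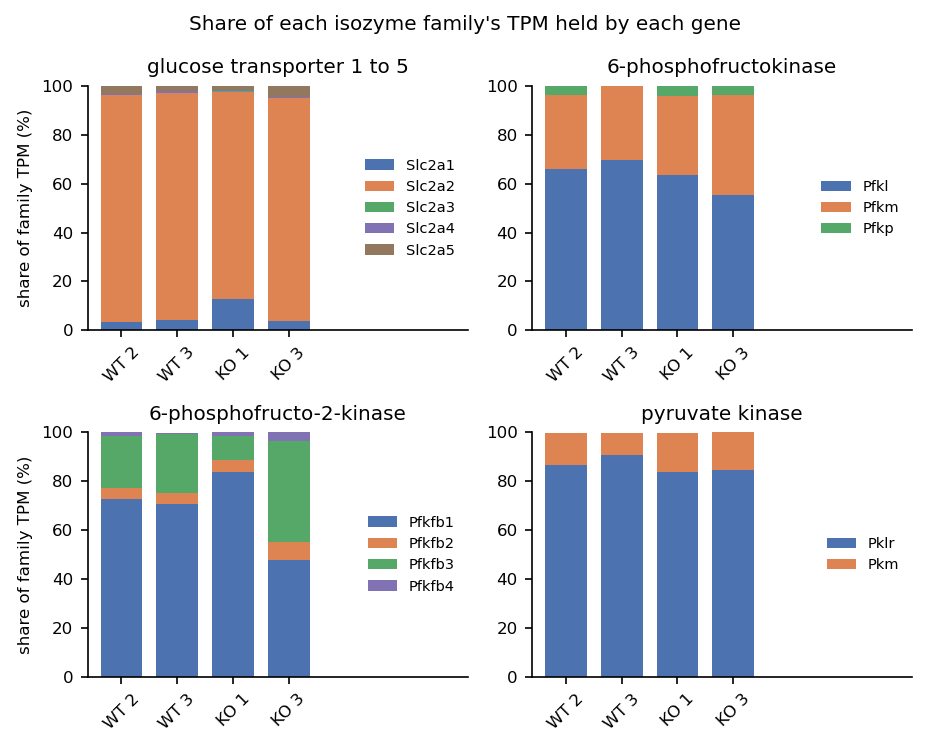
Share of the TPM of each isozyme family (vertical axis, in %) held by each gene, for 4 families in the 4 libraries, 1 stacked bar per library. *Slc2a2* and *Pklr* hold most of their families in every library, and *Pfkfb1* goes from 83.8% in KO replicate 1 to 47.9% in KO replicate 3.

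Across the set, the libraries did not follow a single order. In *Slc2a2*, *Pfkfb3* and *Pklr* KO replicate 1 was the lowest library, and in *Gckr*, *Khk*, *Pfkl*, *Pfkfb1* and *Gapdh* KO replicate 3 was the lowest. Over all tested genes, the root mean square log2 distances from the WT libraries were 0.69 and 0.68 for KO replicate 1 and 0.60 and 0.62 for KO replicate 3, compared with 0.60 between the KO libraries and 0.56 between the WT libraries.

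The other genes of the pathway were read from lists that cover glucose transport and phosphorylation, phosphofructokinase and its regulators, the lower steps with lactate, fructose and polyols, and the regulators of glycolytic transcription. Of 54 listed genes, 40 were tested, and 0 passed the adjusted threshold in limma in either direction. An unadjusted p under 0.05 by limma was found for 5 of them, and for 10.5% of all tested genes. The KO mean was higher for 15 and lower for 25 of the 40, and lower for 33.3% of all tested genes. In glucose transport and phosphorylation 2 of 5 tested genes had a higher and 3 a lower KO mean, with a median difference of -0.06. *Slc2a9*, a urate and glucose transporter, had 14.4 and 8.77 TPM in WT, against 6.93 and 6.78 TPM in KO (-0.64), and *Slc2a8*, an intracellular transporter, had 7.46 and 10.4 TPM in WT, against 3.95 and 7.68 TPM in KO (-0.58). Both genes tested of the phosphofructokinase list had differences near the median of all genes, 0.11 for *Pfkm* and 0.18 for *Tigar*, a phosphatase that removes fructose 2,6-bisphosphate.

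Among lower glycolysis and lactate genes 5 of 14 had a higher and 9 a lower KO mean, with a median of -0.18. *Slc16a1*, the lactate and pyruvate transporter MCT1, had 5.05 and 5.96 TPM in WT, against 12.6 and 12.2 TPM in KO, the largest difference of this list at 1.05 ± 0.21 (SE), with an unadjusted p of 0.00300 and an adjusted p of 0.402 by limma. *Ldha*, lactate dehydrogenase A and the most abundant gene of the list, had 426 and 373 TPM in WT, against 453 and 508 TPM in KO. *Aldoc*, the brain-type isozyme of its family, had 7.82 and 9.11 TPM in WT, against 8.75 and 3.72 TPM in KO, so it overlapped.

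Of the fructose and polyol genes 1 of 8 had a higher and 7 a lower KO mean, with a median of -0.12. A lower KO mean was found for 33.3% of all tested genes. Both KO libraries lay above WT in 0 and below WT in 2 of the 8, against 34.4% and 10.9% of all tested genes. *Slc2a5* had 3.51 and 1.61 TPM in WT, against 0.639 and 2.70 TPM in KO. The values of *Tkfc* stand beside *Khk* above.

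The regulators were divided, with 5 of 11 higher and 6 lower in KO mean and a median of -0.02. *Srebf1*, whose SREBP-1c isoform carries the insulin signal to the lipogenic genes, had 58.1 and 64.3 TPM in WT, against 27.3 and 20.7 TPM in KO, a difference of -1.32 ± 0.20 (SE) with an unadjusted p of 0.000808 and an adjusted p of 0.242 by limma. *Hnf4a*, a nuclear receptor of hepatocytes, had 112 and 105 TPM in WT, against 171 and 155 TPM in KO (0.59 ± 0.16, adjusted p = 0.464, limma). *Txnip*, a ChREBP target that limits glucose uptake, was at 8.25 to 9.13 TPM in 3 libraries and at 41.4 TPM in KO replicate 3. With TMM factors, which took the median of all genes from 0.15 to 0.01, the list medians in the order above were -0.19, 0.03, -0.33, -0.28 and -0.17. With every library divided by its *Gapdh* level, which took it to 0.29, they were 0.07, 0.27, -0.03, 0.03 and 0.12. With 1 library left out, the median of glucose transport and phosphorylation ran from -0.47 (without KO replicate 1) to 0.07 (without WT replicate 2), being -0.18 without WT replicate 3 and 0.02 without KO replicate 3, and at a minimum mean of 5 TPM it was -0.58. The median of lower glycolysis and lactate was -0.03 without KO replicate 3 and -0.10 without WT replicate 2. For fructose and polyol genes it was -0.20 without KO replicate 1 and -0.19 without WT replicate 3. For the regulators it was -0.12 without KO replicate 1, 0.03 without KO replicate 3, and 0.07 and 0.01 when WT replicate 2 or 3 was left out.

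**Figure D5:**
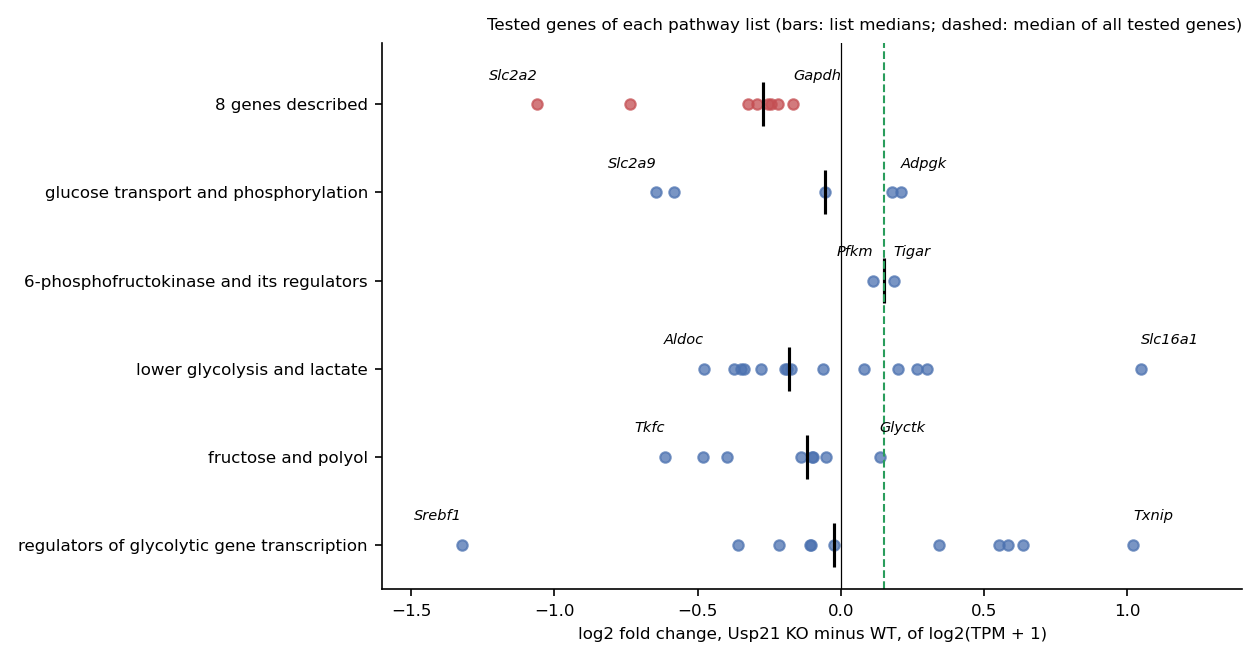
Difference in log2(TPM + 1), KO minus WT (horizontal axis), of the tested genes of the 8-gene set (red) and of 5 pathway lists (blue), 1 point per gene, with a black bar at each list's median and a dashed green line at the median of all tested genes (0.15). The 8 genes all lie below 0, with a median of -0.27, while the list medians lie between -0.18 and 0.15.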

How the data were processed

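Liver RNA-seq libraries from WT replicates 2 and 3 and from *Usp21* KO replicates 1 and 3 were grouped by their labels. The authors sequenced total RNA on an Illumina MiSeq. Salmon, HTSeq, edgeR, Partek, deepTools and the genome build mm10 are named in the submitters' processing notes, while versions, the annotation release and the strand setting are not given in the sources used here. The authors deposited salmon abundances per gene as TPM for 35739 genes, and the same values as log2(TPM + 1). They also deposited HTSeq counts divided by TMM library sizes for 55335 genes, a count-based signal (CPM), with its own log2 table. Of all columns of values per sample, 0 were left unused.

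Each CPM value was a whole multiple of 1 read (6.68 to 9.22 CPM), with 100% whole within 0.02 reads, which gave 102898 to 148164 reads per library. A value of 0 leaves room for 3 reads (20.0 to 27.7 CPM), by counting error only. Because abundant genes were at 0 in the CPM table, TPM were used for the comparisons.

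The 9581 genes whose mean reached 1 TPM were tested on log2(TPM + 1), a scale that understates changes of low genes, with limma 3.58.1 (lmFit, eBayes with trend, 3.62 prior degrees of freedom) in R 4.3.3, two-sided, with Benjamini-Hochberg adjustment over all tested genes. Isozyme shares and ratios were tested by exact permutation over libraries. The limma p-values set each difference against a spread that combines the 2 mice per genotype with a trend over all tested genes. Without this moderation the unadjusted p was 0.158 for *Slc2a2* and 0.198 for *Pklr* by limma. The permutation p-values rest only on the ways of dividing the libraries between the genotypes. Other settings tried were a pseudocount of 0.1 or of 5, a minimum mean of 5 TPM or none, equal totals, upper quartile scaling, TMM factors, scaling to *Gapdh*, variances without moderation or trend, the CPM table, edgeR 4.0.16 and DESeq2 1.42.0 on the recovered reads, and each library left out in turn. The scripts were tested on simulated data.

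Coordinates and transcripts came from GENCODE M21 (GRCm38), and start regions from RefSeq (GRCm38.p6). The 8 genes, the gene lists and the tests were chosen with earlier results of these data known. The genes named were the 8 genes, their isozymes, from each list any gene past the adjusted threshold, the 2 tested genes with the largest absolute difference and the most abundant one, the 3 genes nearest to the member with the lowest p, and *Usp21*. Some genes of the lists are not reported here.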

Additional observations from a re-analysis of the deposited data

How the results depend on the processing

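All 8 genes had a lower KO value, and 0 of 8 passed the adjusted threshold, under each pseudocount, filter, scaling and variance setting that gave them a value. *Gapdh* has none when scaled to itself, *Pfkfb3* none at a minimum mean of 5 TPM, and the CPM table and its recovered reads, with 1 read of *Khk* and 1 of *Pfkfb1*, were not used for the set. Of 110 values of single genes under these settings and with 1 library left out, 105 kept their direction. The filter and variance settings leave the difference of a gene unchanged, so no direction could turn under them. The 5 that turned were *Pfkfb3* (0.30 without KO replicate 1, 0.05 without WT replicate 3), *Gckr* (0.32 without KO replicate 3, 0.11 without WT replicate 3) and *Pfkfb1* (0.28 without KO replicate 3). Their lowest values were -0.79 (without KO replicate 3), -0.83 and -0.93 (both without KO replicate 1). *Slc2a2* fell short of a 2-fold difference with a pseudocount of 5 (-0.99) and when scaled to *Gapdh* (-0.90), and reached -1.22 with TMM factors. The unadjusted p of *Slc2a2* and *Pklr* was above 0.05 without moderation (0.158 and 0.198), scaled to *Gapdh* (0.0581 and 0.152) and without KO replicate 1 (0.107 and 0.212) by limma. That of *Slc2a2* was 0.117 without WT replicate 2, and that of *Pklr* was 0.0605 without trend and 0.226 without WT replicate 3, by limma. The cause was not tested.

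The median over the 8 genes, -0.27, ran from -0.56 (without WT replicate 2) to -0.13 (without WT replicate 3) when 1 library was left out, and was -0.43 with TMM factors, -0.39 with upper quartile scaling and -0.15 scaled to *Gapdh*. The median of all genes was 0.15, and 0.01 with TMM factors, 0.04 with upper quartile scaling and 0.29 scaled to *Gapdh*. Genes changed at least 2-fold numbered 353 (248 higher, 105 lower), and 154 and 153 with TMM factors, 180 and 135 with upper quartile scaling and 409 and 79 scaled to *Gapdh*. In total they were 203 of 5822 genes at a minimum mean of 5 TPM. With a pseudocount of 0.1 they were 820, with one of 5 they were 115, and with 1 library left out 463 to 695. In the CPM table, of 5146 genes above 0 in some library, they were 3134, with edgeR on the recovered reads 2915 and with DESeq2 3018. Each library of the CPM table had only 2814 to 3513 genes above 0. Genes past the adjusted threshold numbered 8 of 9581, and 4 of 15061 without a filter. Of the 5146 genes, 1 passed in the CPM table, 12 with edgeR and 1 with DESeq2. They were 0 without moderation and 0 with any library left out, where 806 and 542 to 1188 genes had an unadjusted p under 0.05 by limma. A fit that left out a library assumed that the lone library of its genotype varied like the other genotype.

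Differences in isozyme share also turned. Without KO replicate 3 that of *Pfkfb1* went from -5.93 to 12.1 and that of *Pfkfb3* from 2.81 to -12.9 percentage points, and without KO replicate 1 they were -23.9 and 18.5. No paired analysis was run, because the sources used here give no litter, pair or batch for the libraries. Replicate numbers were not read as pairs.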
